A study of Mus musculus with 16 samples.

Results

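The zonation genes of the liver lobule followed here were 6 pericentral genes (Glul, Oat, Cyp2e1, Cyp1a2, Axin2 and Rgn) and 4 periportal genes (Cyp2f2, Hal, Sds and Gls2). These 10 genes were taken by name from textbook knowledge of the lobule, out of 33269 gene names on the array. The choice was made with earlier results of these data known. Each gene was read from the probe that was brightest over the 16 arrays. The mice were female C57Bl/6 animals made cirrhotic by 40 weeks on an atherogenic diet rich in fat. One set of mice received phosphate-buffered saline (PBS). The other received adipose tissue-derived stem cells (ADSC), fat-derived mesenchymal cells that were cultured from GFP-transgenic donors and injected beneath the capsule of the spleen on 2 occasions, 100000 cells each time. Tissue was collected 2 weeks after the final dose. Whole liver and hepatic inflammatory cells, a fraction enriched for the immune cells within the liver, were profiled with 4 arrays in each of 4 groups, numbered 11 to 14 for PBS and 7 to 10 for ADSC. All groups share the diet, so there is no healthy liver among the samples used here. No label says that every array stands for a separate mouse, and p-values therefore measure the spread between samples.

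Blood flows through the liver lobule from the portal tract to the central vein, and hepatocytes along that path divide the work. Periportal hepatocytes break down amino acids, make urea and release glucose. Pericentral hepatocytes carry most of the cytochrome P450 enzymes, and the innermost layer around the vein makes glutamine from the ammonia that escaped the urea cycle. Wnt ligands from the endothelium of the central vein keep the pericentral program on through beta-catenin. An array of whole liver sums over the lobule, so zone names here come from earlier knowledge and no position was measured. In such bulk samples, fewer cells of a type and less RNA per cell cannot be told apart.

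Promoter sequence is shown first, because among the genes with a promoter at hand the 3 with the smallest values for the difference between sample types also had the most CpG. The 3 include Axin2, whose probe was near background in inflammatory cells, so the size of its difference is not a measured one. Across all tested genes with a window the medians ran the other way, as given below, and the split was given no test. RefSeq promoters on the GRCm38.p6 build were at hand for 7 of the 10 genes, and the 250 bases before the annotated start were read on the strand of the gene. Glul, Oat and Axin2 had GC contents of 64.8%, 60% and 69.2% and held 15, 14 and 24 CpG dinucleotides. Cyp2e1, Cyp1a2, Cyp2f2 and Hal had GC contents of 48.8%, 47.2%, 51.6% and 45.6% and held 2, 3, 0 and 6. The median of all 32851 promoters was 52.4% GC and 6 CpG. Printed below are the CpG-rich windows of Glul and Axin2 and the CpG-poor windows of Cyp2e1 and Cyp2f2, with each CpG in capitals.
Glul, chr1:153899679-153899928, plus strand: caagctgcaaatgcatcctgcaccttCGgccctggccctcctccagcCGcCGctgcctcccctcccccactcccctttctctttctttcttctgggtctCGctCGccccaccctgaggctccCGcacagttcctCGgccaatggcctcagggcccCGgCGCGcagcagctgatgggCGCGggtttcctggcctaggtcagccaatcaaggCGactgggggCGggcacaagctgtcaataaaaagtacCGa
Axin2, chr11:108920099-108920348, plus strand: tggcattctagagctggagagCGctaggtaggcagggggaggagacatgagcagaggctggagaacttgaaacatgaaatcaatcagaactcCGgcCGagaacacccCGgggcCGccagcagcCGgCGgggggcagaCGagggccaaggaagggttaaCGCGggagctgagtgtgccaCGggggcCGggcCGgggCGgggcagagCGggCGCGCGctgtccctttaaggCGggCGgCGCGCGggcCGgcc
Cyp2e1, chr7:140763569-140763818, plus strand: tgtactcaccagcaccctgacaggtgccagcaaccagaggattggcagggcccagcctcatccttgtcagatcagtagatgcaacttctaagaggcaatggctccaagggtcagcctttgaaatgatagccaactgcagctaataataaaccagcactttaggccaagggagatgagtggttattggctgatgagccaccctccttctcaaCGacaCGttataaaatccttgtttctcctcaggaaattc
Cyp2f2, chr7:27119705-27119954, plus strand: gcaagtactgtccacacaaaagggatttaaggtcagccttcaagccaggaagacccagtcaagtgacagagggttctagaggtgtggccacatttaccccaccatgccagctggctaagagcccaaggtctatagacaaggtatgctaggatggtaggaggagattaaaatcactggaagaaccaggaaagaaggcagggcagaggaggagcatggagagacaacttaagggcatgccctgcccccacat

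Short motifs were searched on both strands of the 7 windows. The TCF/LEF core, CTTTGAA or CTTTGAT, through which beta-catenin is recruited to DNA, occurred in 7.48% of all promoters. It was found in Cyp2e1, 135 bases before the start, in Cyp1a2, 244 bases before on the opposite strand, and in Hal, 199 bases before. The TATA box letters TATAAA, present in 12.4% of all promoters, lay 31 bases before the start of Cyp2e1, 29 before that of Cyp1a2 and, on the opposite strand, 28 before that of Hal. The xenobiotic response element core GCGTG (28.2% of promoters) was found in Hal, and the HNF4A motif CAAAGTCCA (0.384%) in none of the 7. Glul, Oat, Axin2 and Cyp2f2 held none of these letters in the window.

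The arrays differed in brightness more than in coverage. Between 51.6% and 66.3% of spots were well above background, and the 75th percentile of their signal lay between 123.8 and 551.9. Levels are given as log2 signal relative to that percentile of the same array and are compared only within a probe. In the marker lists, 17 of 17 tested hepatocyte markers were lower in inflammatory cells than in liver, and 13 of 14 neutrophil markers were higher. Transcripts of hepatocyte genes were still measured in the inflammatory cells, where Alb averaged 5.54 and Ahsg 4.78, while Ttc36 and Hnf4a were well above background on none of those 8 arrays. Digestive enzymes of the exocrine pancreas were present in some inflammatory cell arrays, most in PBS 11, PBS 13 and ADSC 10.

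All 10 zonation genes were lower in hepatic inflammatory cells than in whole liver, but by very different amounts. Rgn, Cyp2e1 and Cyp2f2 lay 206-fold, 153-fold and 75.9-fold lower, and Gls2, Sds, Hal and Cyp1a2 lay 55.2-fold, 43.2-fold, 39.8-fold and 29.8-fold lower. Glul was 4.54-fold and Oat 2.03-fold lower. Axin2 passed the test as lower too, but its probe was well above background on only 2 of 8 inflammatory cell arrays and no fold is given for it. In limma's fit of all 16 arrays, 35.5% of the 22145 genes tested were lower and 48.9% higher at an adjusted p of 0.05, so being lower was common among all genes. The groups did not overlap for 8 of the 10 genes, all but Oat and Axin2, against 23.8% of genes with every inflammatory cell array below every liver array.

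**Figure D1:**
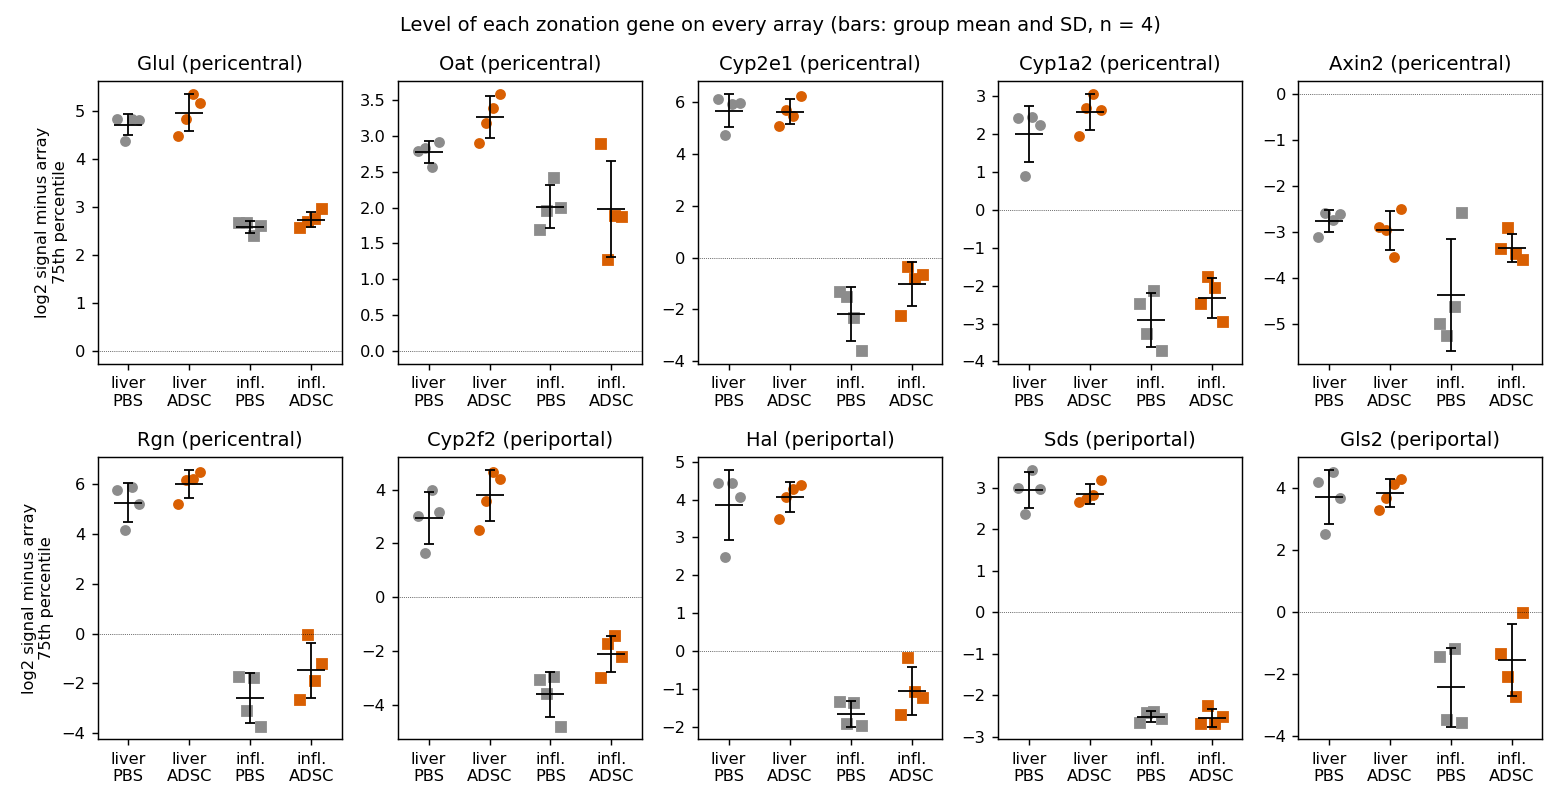
Level of each zonation gene on every array, as log2 signal minus the 75th percentile of the array; grey marks PBS and orange ADSC, circles liver and squares inflammatory cells, with group mean and SD (n = 4). Liver and inflammatory cells are apart in every panel but Oat and Axin2, and PBS and ADSC overlap in every panel.

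Among the pericentral genes, Rgn encodes regucalcin, a calcium-binding protein that also acts as the gluconolactonase of ascorbate synthesis. Its level was 5.78, 4.18, 5.89 and 5.21 in liver PBS 11 to 14 and 5.21, 6.18, 6.21 and 6.52 in liver ADSC 7 to 10. In inflammatory cells it was -1.76, -3.13, -1.77 and -3.74 for PBS and -2.69, -0.07, -1.92 and -1.22 for ADSC. The lowest liver array stood far above the highest inflammatory cell array, and the difference was -7.69 ± 0.40 (SE, 8 arrays against 8, limma adjusted p = 5.18e-11). Only 0.0542% of the genes tested had a lower difference. The Rgn probe was well above background on 6 of the 8 inflammatory cell arrays.

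Cyp2e1, the ethanol-inducible cytochrome P450, read 6.12, 4.72, 5.92 and 5.96 in liver PBS and 5.09, 5.69, 5.49 and 6.25 in liver ADSC. Its inflammatory cell levels were -1.31, -1.51, -2.33 and -3.60 for PBS and -2.25, -0.35, -0.83 and -0.67 for ADSC. All 16 arrays were well above background for this probe, so both sides of the difference of -7.26 ± 0.35 (adjusted p = 2.6e-11, limma) were measured. Cyp1a2, which oxidizes aromatic amines and caffeine, differed by -4.90 ± 0.29 (adjusted p = 1.94e-10, limma), from a liver range of 0.89 to 3.05 (median 2.44) to an inflammatory cell range of -3.72 to -1.77 (median -2.49). Only 5 of 8 inflammatory cell arrays were well above background for Cyp1a2. A second Cyp1a2 probe, with a higher liver mean (3.33 against 2.28), differed by -7.16. It was well above background on only 9 of 16 arrays, so that size is not a measured one. The size given for Cyp1a2 therefore depends on the probe.

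Glul, Oat and Axin2 differed less. Glul encodes glutamine synthetase, in liver a mark of the innermost pericentral hepatocytes. It read 4.84, 4.38, 4.83 and 4.82 in liver PBS, 4.49, 4.83, 5.36 and 5.18 in liver ADSC, 2.67, 2.66, 2.39 and 2.60 in inflammatory cells PBS and 2.57, 2.68, 2.75 and 2.95 in inflammatory cells ADSC. The groups did not overlap, the difference was -2.18 ± 0.14 (adjusted p = 4.04e-10, limma), and a second Glul probe gave -1.47. Glul also varied little among the inflammatory cells, with an SD of 0.16 over 8 arrays against 1.07 for Cyp2e1 and 1.15 for Rgn. This was not particular to Glul, since Sds had the same SD of 0.16, and Oat and Hal had 0.48 and 0.57.

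Oat, ornithine aminotransferase, which shares the innermost layer with Glul, read 2.79, 2.83, 2.57 and 2.92 in liver PBS and 2.90, 3.19, 3.39 and 3.59 in liver ADSC. In inflammatory cells it read 1.69, 1.96, 2.41 and 2.00 for PBS and 2.89, 1.27, 1.89 and 1.87 for ADSC, so that 1 array, ADSC 7, reached into the liver range. The difference was -1.02 ± 0.20 (adjusted p = 0.000147, limma). Axin2, a scaffold of the beta-catenin destruction complex that is itself switched on by Wnt signals, was dim everywhere: from -3.54 to -2.49 in liver (median -2.81) and from -5.27 to -2.59 in inflammatory cells (median -3.55). Its probe was well above background on 7 of 8 liver arrays and on 2 of 8 inflammatory cell arrays, PBS 14 and ADSC 7. Axin2 could enter the fit only through its liver arrays, so its difference of -1.0 ± 0.31 (adjusted p = 0.00685, limma) is set largely against background signal and its size is not a measured one. The call was lost when arrays were scaled on detected probes (-0.65, adjusted p = 0.0656, limma), after normexp background correction (0.10) and without the pancreas-rich arrays.

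The 4 periportal genes formed a tighter group, between -6.25 and -5.32. Cyp2f2, a cytochrome P450 of naphthalene metabolism, ran from 1.65 to 4.65 in liver (median 3.38) and from -4.82 to -1.46 in inflammatory cells (median -2.99), a difference of -6.25 ± 0.39 (adjusted p = 4.23e-10, limma). Gls2, the liver glutaminase that releases ammonia for urea synthesis, ran from 2.53 to 4.52 (median 3.91) and from -3.58 to -0.03 (median -1.78), a difference of -5.79 ± 0.45. Sds and Hal, which start the breakdown of serine and of histidine, differed by -5.43 ± 0.15 and -5.32 ± 0.29. Sds was the steadiest of the 4: its 8 inflammatory cell arrays lay between -2.70 and -2.25 and its 8 liver arrays between 2.37 and 3.44. Of the 8 inflammatory cell arrays, 5 were well above background for Cyp2f2, 6 for Gls2, 7 for Sds and 8 for Hal. Normexp background correction, which adds an offset, gave smaller differences for the genes that are dim in inflammatory cells: -6.70 for Rgn, -6.41 for Cyp2e1, -3.47 for Cyp1a2, -4.73 for Cyp2f2, -4.65 for Gls2, -4.63 for Hal and -4.15 for Sds. Glul and Oat stayed at -2.27 and -1.08.

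**Figure D2:**
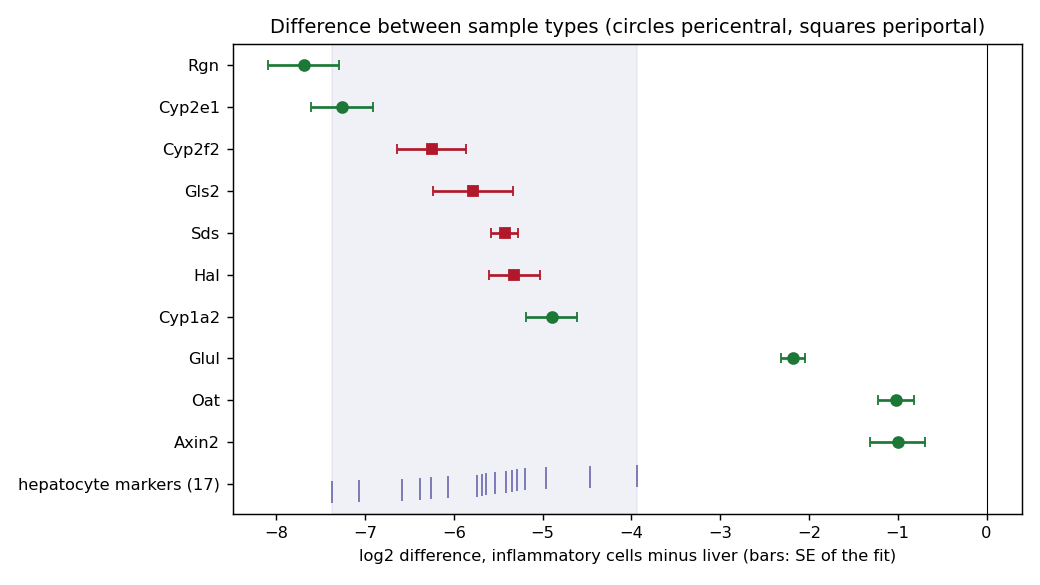
Log2 difference of each zonation gene between inflammatory cells and liver, with the SE of the fit over 16 arrays; ticks and shading mark 17 hepatocyte markers, which ran from -7.37 to -3.94. Glul at -2.18 and Oat at -1.02 lie to the right of every hepatocyte marker. Axin2 is drawn there too, but its probe was near background in inflammatory cells, and the left end of the shading is a bound.

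The hepatocyte markers give a scale for these sizes. Their median difference was -5.64, with a range from -7.37 to -3.94. The lower end is Ttc36, which like Hnf4a was well above background on none of the 8 inflammatory cell arrays, so that end is a bound and no order among the lowest genes is drawn from it. Cyp1a2, Hal, Sds, Gls2 and Cyp2f2 fell within the range, and Cyp2e1 and Rgn lay near its lower end. Glul and Oat, measured on all 16 arrays, lay above its upper end. Axin2 was dim in liver as well, and no place in the order is given for it. When each array was scaled to the mean of its hepatocyte markers instead, Glul and Oat were higher in inflammatory cells by 3.52 ± 0.30 and 4.68 ± 0.36 (adjusted p = 1.51e-12 and 1.34e-13, limma), and the median difference of all genes was 6.05 on that scale. Limma called 98.3% of genes higher under this scaling, which was chosen after seeing the data. Leaving Axin2 aside, the other 7 genes then ran from -1.98 for Rgn to 0.81 for the Cyp1a2 probe used. Gls2 at -0.08 and Sds at 0.27 had the smallest mean offsets from the hepatocyte markers. From array to array, subtracting the marker mean raised the SD in inflammatory cells from 1.22 to 1.33 for Gls2 and from 0.16 to 0.63 for Sds. In liver it lowered the SD from 0.65 to 0.38 and from 0.33 to 0.22.

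The 3 genes with the small differences held 14 or more CpG in the window, and the 4 others with a window held at most 6. Hal, with 6, stood at the median of all promoters. This split was noticed after the differences were known, it rests on 7 genes, and it was given no test. For Axin2 the small difference is that of a probe dim in both sample types. Across 10602 tested genes with a window the medians ran the other way: genes with at most 6 CpG had a median difference of 1.49, and 35.4% of them were lower in inflammatory cells, while genes with 14 or more had a median of -0.31, and 58.6% were lower. Falls of over 2 on the log2 scale were found for 19.7% of the genes with at most 6 CpG and 11.8% of those with 14 or more. Both limits were taken from the 7 genes themselves, and Glul, with 15 CpG, had such a fall at -2.18. No support for the split is drawn from these shares.

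Wider lists, drawn up by function and holding none of the 10 genes, were counted in the same fit. Of 22 further pericentral genes 18 were lower and 1 was higher in inflammatory cells (median -4.29, all genes 0.35). Those with the smallest p were Cyp3a11 at -6.63 ± 0.20, Cyp2c29 at -6.72 ± 0.23 and Lect2 at -4.97 ± 0.17. The higher one was Lgr5, a Wnt target and R-spondin receptor, at 1.20 ± 0.20 (adjusted p = 4.66e-05, limma), named here after its value was seen. All 19 further periportal genes were lower (median -4.69), among them the gluconeogenic Fbp1 at -7.49 ± 0.26 and Ftcd, which takes up the product of histidine breakdown, at -7.96 ± 0.29.

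Of 30 tested genes of Wnt and beta-catenin signalling, 12 were lower and 7 higher, with a median of -0.28 that became 0.06 when arrays were scaled on detected probes. The feedback inhibitor Nkd1 differed by -3.01 ± 0.16, and Tcf7, a T cell transcription factor, was higher by 3.08 ± 0.19. The target Sp5 was lower, and its probe was well above background on none of the 8 inflammatory cell arrays. Rspo3, the R-spondin of the central vein, was well above background on none of the 16 arrays. The 21 genes of glutamine, glutamate and ammonia handling divided into 16 lower and 5 higher. The amino acid carriers Slc38a4 and Slc38a3 differed by -6.57 ± 0.19 and -5.81 ± 0.24, and Otc, of the urea cycle, was well above background in liver but on none of the 8 inflammatory cell arrays. The 5 higher genes, named after their values were seen, were the carriers Slc38a5, Slc1a5 and Slc38a2, the proline enzyme Aldh18a1 and the aminotransferase Got1. The last 4 differed by 2.62, 1.90, 1.24 and 0.77. Slc38a5 was well above background on none of the 8 livers.

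Every slide and every scan day held both sample types, and 9 of the 10 genes were lower in inflammatory cells within each of them. Within the 5 slides Glul differed by -2.75 to -1.99, Oat by -1.39 to -0.46 and Cyp2e1 by -9.57 to -6.34. Axin2 ran from -2.02 to 0.13 within slides and from -1.14 to 0.13 within scan days.

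No zonation gene passed the test for ADSC against PBS in whole liver. Limma called 0 of 17321 genes (0%), with 806 at an unadjusted p under 0.05, and each of the 10 had an adjusted p of 0.998. The differences of 7 genes were positive and of 3 negative, with a median of 0.37 for the pericentral and 0.16 for the periportal genes beside 0.04 for all genes, of which 60.3% were positive. Both medians turned with slide as a fixed block (-0.43 and -1.08) and with scan day as a term (-0.07 and -0.62), and with slide as a random block the periportal median was -0.04. Missing the threshold with 4 arrays against 4 does not show that the levels were alike.

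Oat had the smallest p. Its PBS arrays lay between 2.57 and 2.92 and its ADSC arrays between 2.90 and 3.59, overlapping by 1 array, and the difference was 0.49 ± 0.16 (unadjusted p = 0.0156, adjusted p = 0.998, limma). An exact two-sided permutation test of Oat alone gave p = 0.0571 (0.571 adjusted over the 10 genes), where 4 arrays against 4 allow 0.0286 at the least. Glul differed by 0.25 ± 0.21, Rgn by 0.77 ± 0.42, Cyp1a2 by 0.57 ± 0.38, Cyp2e1 by -0.05 ± 0.35 and Axin2 by -0.21 ± 0.22. On the periportal side Cyp2f2 differed by 0.82 ± 0.58, Hal by 0.20 ± 0.44, Gls2 by 0.12 ± 0.42 and Sds by -0.09 ± 0.23. Cyp2f2 spread most: its PBS livers read 3.03, 1.65, 4.00 and 3.17, and its ADSC livers 2.51, 3.60, 4.65 and 4.40.

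**Figure D3:**
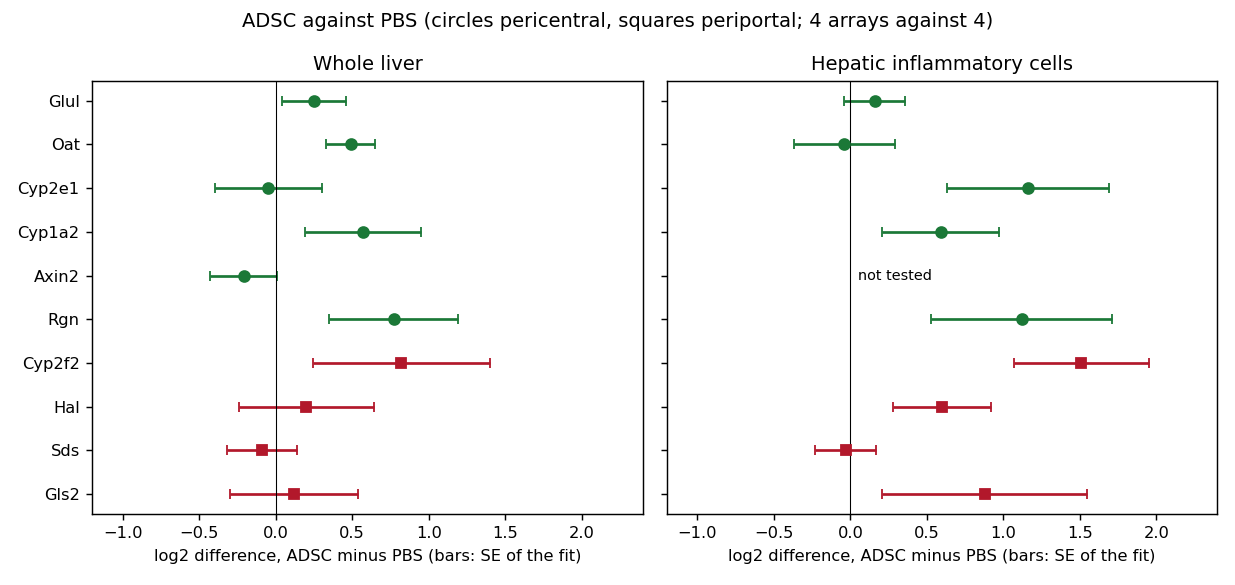
Log2 difference of each zonation gene between ADSC and PBS in whole liver (left) and in inflammatory cells (right), with the SE of each fit (4 arrays against 4). None passed the adjusted threshold in either sample type, and Axin2 was not tested in inflammatory cells.

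One liver array stood apart in both zones. Liver PBS 12 had the lowest level of 8 of the 10 genes, all but Oat and Axin2, while it was the lowest array for 29% of genes well above background in liver. Relative to the mean of the 8 livers, its pericentral genes averaged -0.70, its periportal genes -1.25 and its hepatocyte markers -0.54, while its neutrophil markers stood at 3.45. This array also had the highest 75th percentile, 551.9, which is subtracted from every level. Without it, 5 of the 10 differences were positive in place of 7, the pericentral median was 0.17, the periportal median turned to -0.27, and still 0 genes were called. Leaving out ADSC 9 or ADSC 10 gave a periportal median of 0.07 or 0.03, and leaving out PBS 11, PBS 13 or ADSC 7 gave 0.33, 0.38 or 0.34.

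Cell content and batch moved along with the liver comparison. Neutrophil marker means ran from 0.15 to 3.69 in liver PBS and from -2.13 to -0.73 in liver ADSC. All 13 tested neutrophil markers had negative differences (median -3.25), but 0 were called. Hepatocyte marker means ran from 6.23 to 7.00 in liver PBS and from 6.50 to 7.00 in liver ADSC, and for both marker lists the ranges are over the arrays. The part of these cells in the result was not tested. The ADSC livers were scanned on days 1 and 2 and the PBS livers on days 2 and 3, and day 2 alone held both, ADSC 7 and 9 with PBS 13. Within that day Oat differed by 0.57 and Glul by 0.10, but Rgn, Cyp2f2, Hal and Gls2 turned negative, at -0.18, -0.42, -0.55 and -0.80. The scan day term rests on the same arrays and gives these same values. Limma with array weights called Oat (0.40 ± 0.11, adjusted p = 0.0395) and Rgn (0.99 ± 0.21, adjusted p = 0.0209) higher, beside 9.74% of all genes called higher, and that fit weighted liver PBS 14 at 12.4 and the other PBS arrays between 0.277 and 0.446. The estimate of the weights stopped before it converged.

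**Figure D4:**
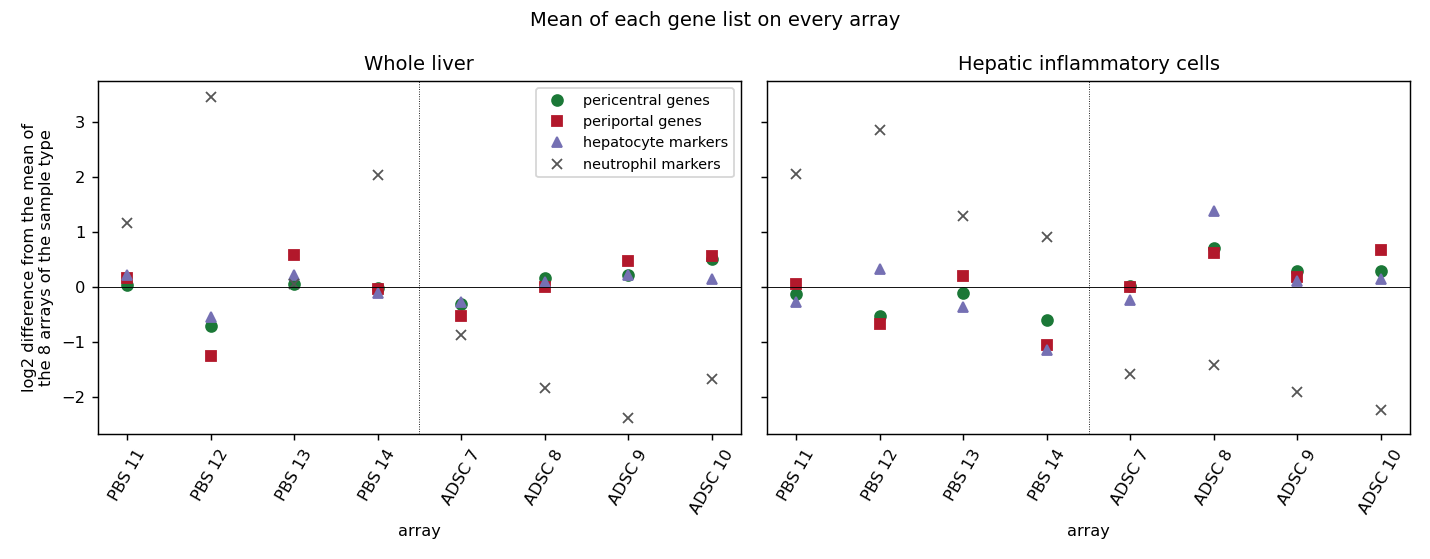
Mean of the pericentral genes, the periportal genes, 17 hepatocyte markers and 14 neutrophil markers on each array, as log2 difference from the mean of the 8 arrays of its sample type; PBS arrays lie left of the dotted line. In liver, PBS 12 has the lowest zonation and hepatocyte means (-0.70, -1.25 and -0.54) and the highest neutrophil mean (3.45).

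The means of both zones had the same sign in each of the 8 livers, measured from the mean of the livers. They were negative in PBS 12, PBS 14 and ADSC 7 and positive in PBS 11, PBS 13 and ADSC 8, 9 and 10. Both means share the 75th percentile of their array. The pericentral minus periportal contrast was -0.12, 0.55, -0.53 and 0.02 on the PBS arrays (11 to 14) and 0.21, 0.16, -0.24 and -0.05 on the ADSC arrays (7 to 10), so the treatment groups overlapped. Paired by function, Glul minus Gls2 lay between -0.74 and 0.80 on the PBS arrays and between -0.16 and 0.17 on the ADSC arrays. Cyp2e1 minus Cyp2f2 lay between -0.35 and 0.80 with PBS and between -1.44 and 0.30 with ADSC, where 3 of 4 arrays were negative. Cyp1a2 minus Cyp2f2 read 0.48, 0.33, -0.45 and 0.15 with PBS and 0.51, 0.17, -0.51 and -0.68 with ADSC.

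Genes whose levels followed a zonation gene closely over the 8 livers were drawn from 10462 genes well above background on all of them. Acadm and Larp1b followed Glul (Pearson r of 0.98 and 0.977), and Adh5, Snrpn and Psmd9 followed Cyp2e1 (0.976, 0.966 and 0.965). Yars2, Slc22a30 and Rassf6 followed Cyp2f2 (0.98, 0.979 and 0.976), and Ak4, Hebp1 and Inmt followed Hal (0.999, 0.997 and 0.994). The genes were picked for the highest r over these same 8 arrays, so high coefficients follow from the choice. The arrays also share PBS 12 as an extreme. Without it the coefficients lay between 0.927 and 0.997, which uses the arrays of the choice again and is no separate check. Among the 10 genes themselves r was 0.97 for Hal with Gls2, 0.94 for Glul with Cyp2f2, which mark opposite zones, and 0.94 for Cyp1a2 with Rgn, while Axin2 had coefficients from -0.54 to 0.11 with the rest.

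The wider lists in liver also gave 0 calls, and their counts of positive differences stand beside 60.3% of all genes. Of 22 further pericentral genes 20 had positive differences (median 0.27), Lect2 having the smallest p at 0.58 ± 0.19, and of 19 further periportal genes 17 had (median 0.17). Such counts were not particular to the zonation lists. Positive differences were found for 13 of 17 hepatocyte markers (median 0.14) and 12 of 13 genes of the fasting and glucagon response (median 0.17). For hepatocyte transcription factors the count was 9 of 16. Genes of a list can move together over the same arrays. Of 27 tested Wnt genes 19 were positive (median 0.07). Wnt2, a ligand of the central vein and sinusoidal endothelium, differed by 0.32 ± 0.13, and Sp5 by -0.60 ± 0.23, both with an adjusted p of 0.998 in limma.

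None of the 9 tested zonation genes was called in the inflammatory cells, where limma called 1.2% of 20167 genes, 0.134% higher and 1.07% lower, and 3719 had an unadjusted p under 0.05. The median difference was 0.59 for 5 pericentral and 0.74 for 4 periportal genes, beside 0.03 for all genes. Without PBS 14 the pericentral median was 0.32, with scan day as a term the medians were 0.31 and 0.44, with slide as a fixed block the pericentral median was 0.25, after normexp with quantile scaling they were 0.28 and 0.32, and without the pancreas-rich arrays they were 0.04 and 0.45 over the genes still tested. The differences of 7 genes were positive, where 52.8% of all genes were. Cyp2f2 had the largest. It read -3.09, -3.62, -2.97 and -4.82 on PBS arrays 11 to 14 and -3.01, -1.76, -1.46 and -2.24 on ADSC arrays 7 to 10, with 1 ADSC array inside the PBS range and a difference of 1.51 ± 0.44 (unadjusted p = 0.006, adjusted p = 0.139, limma). Only 1 of the 4 PBS arrays was well above background for Cyp2f2, against 4 of 4 with ADSC. In the same limma fit Cyp2e1 differed by 1.16 ± 0.53 (adjusted p = 0.273), Rgn by 1.12 ± 0.59, Gls2 by 0.88 ± 0.67, Hal by 0.60 ± 0.32 and Cyp1a2 by 0.59 ± 0.38. For Rgn, Gls2 and Cyp1a2, 2 of 4 PBS arrays were well above background, against 4, 4 and 3 with ADSC. Their differences, like that of Cyp2f2, are set partly against background signal. Those near 0 were Glul at 0.16 ± 0.20, Sds at -0.03 ± 0.20 and Oat at -0.04 ± 0.33.

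Axin2 could not be tested there, since 2 of 8 arrays were well above background. Its levels were -4.99, -5.27, -4.62 and -2.59 in PBS and -3.38, -2.92, -3.48 and -3.61 in ADSC, and the groups overlapped through PBS 14.

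Hepatocyte markers moved along with the zonation genes. Of 15 tested hepatocyte markers 14 had positive differences, with a median of 0.89, and 0 were called. Their mean ran from -0.06 to 1.40 on the PBS arrays and from 0.84 to 2.45 on the ADSC arrays. PBS 14 was lowest and also had the lowest level of 6 of the 10 zonation genes, and ADSC 8 was highest and had the highest level of 5. With the hepatocyte marker mean subtracted from each array, the difference became 0.80 for Cyp2f2, 0.46 for Cyp2e1, 0.42 for Rgn, 0.17 for Gls2, -0.10 for Hal and -0.12 for Cyp1a2. It became -0.55 for Glul, -0.73 for Sds and -0.74 for Oat, and the medians of the 2 zones became -0.12 and 0.04. Subtraction lowered the SD over the 8 arrays from 1.07 to 0.60 for Cyp2e1 and from 1.15 to 0.76 for Rgn, but raised it from 0.16 to 0.68 for Glul and from 0.16 to 0.63 for Sds. Immune cell markers moved further in the same comparison. Of 14 neutrophil markers 12 were called lower with ADSC (median -3.95), their mean lying between 3.99 and 5.95 on the PBS arrays and between 0.86 and 1.67 on the ADSC arrays. Of 10 monocyte and macrophage markers 4 were called lower (median -1.17), with means from 3.28 to 3.65 and from 1.96 to 2.28, and of 10 Kupffer cell markers 2 (median -1.29), with means from 1.14 to 2.19 and from -0.30 to 1.04. The part of hepatocyte and immune cell RNA in these values was not tested.

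Scan day 2 of the inflammatory cells held 2 arrays of each treatment and day 3 held 2 with ADSC and 1 with PBS, while day 1 held only PBS 14. Cyp2f2 differed by 0.97 and 1.12 within those days, and Cyp2e1 by 0.11 and 1.58. Limma with array weights called Cyp2f2 (2.09 ± 0.37, adjusted p = 0.00786) and Cyp1a2 (0.93 ± 0.31, adjusted p = 0.0492) higher, beside 15.3% of all genes called higher, with weights from 0.222 to 5.69. Only 1 and 2 of the 4 PBS arrays were well above background for these genes. Without the 3 arrays rich in pancreas transcripts 5 of the 10 genes could be tested, and 0 were called.

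Further pericentral genes were positive for 15 of 17 (median 0.56), Cyp2a5 having the smallest p at 1.59 ± 0.36 (adjusted p = 0.0644, limma), and further periportal genes for 11 of 18 (median 0.41), with Ftcd at 1.42 ± 0.41 and Igf1, which macrophages also make, at -0.99 ± 0.29. Neither list held a called gene.

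The ADSC difference was then set between the sample types. Limma called 7 of 22145 genes (0.0316%), with 2239 at an unadjusted p under 0.05, and 0 of the 10 zonation genes. Among the 9 genes also tested in the inflammatory cells, the values ran from -0.53 ± 0.39 for Oat (adjusted p = 0.677) to 1.21 ± 0.71 for Cyp2e1 (adjusted p = 0.577) in limma. No value is given for Axin2.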

How the data were processed

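Total RNA labelled with Cy3 was hybridised to 16 one-colour Agilent arrays, 4 in each of 4 groups. The deposited signal is an intensity that Agilent Feature Extraction 10.5.1.1 had background-subtracted, per the file headers, with no scaling between arrays. The 0 or 1 marks for spots well above background, outliers and saturation were used as deposited by the authors. The deposited value table held the same linear intensities (largest relative difference 0), uncentred; its column medians lay between 32.23 and 97.37. The labels' extraction protocol names tumor-infiltrating cells and blood, so how the hepatic inflammatory cells were isolated is not given in the sources used here.

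Outlying spots (71 to 124 of 43379 per array) were left out and 0 were saturated. Levels are log2 signal minus the 75th percentile that the non-control probes of the same array had. RefSeq accessions named 23374 of 41174 probes, and 17800 kept the name in the files. The brightest probe stood for a gene. Genes were tested where at least 4 arrays of the fit were well above background, with limma 3.58.1 in R 4.3.3 and Benjamini-Hochberg adjustment over all genes tested (threshold 0.05). ADSC was set against PBS within each sample type (8 arrays), and the sample types were compared in 1 fit of all 16 arrays. The code was tested on simulated data. The number of arrays limits precision.

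The members and gene lists were chosen with earlier results of these data known. Named genes were the members, up to 3 further genes with the smallest p of a list, and the 3 brightest genes of cell type lists. Exceptions are said to be chosen after their values were seen. Promoter windows and motifs were read from RefSeq on GRCm38.p6; proteins were not analysed here. Alternatives were other background corrections, scalings, filters and probe summaries, slide or scan day as a term, array weights, the replicate block and leaving out arrays. Normexp (offset 50) used the median spot signal. The arrays' numbers (11 to 14, 7 to 10) were checked for pairing. Same-numbered liver and inflammatory cell arrays deviated together with correlations from -0.06 to 0.17 over 22110 genes. Low values between such unlike samples cannot exclude a shared mouse. The main fits used no block, and the replicate block is given as an alternative. One gene that met the naming rule is not reported here.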

Additional observations from a re-analysis of the deposited data

Results flagged for a closer look

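Liver PBS 12 stood apart from the 3 other PBS livers for 3 pericentral genes. For Glul its level of 4.38 lay below the nearest array at 4.82, a gap of 0.954 of the group's range. For Cyp2e1 it lay at 4.72 with the nearest at 5.92, a gap of 0.863 of the range, and for Cyp1a2 at 0.89 with the nearest at 2.23, a gap of 0.856. Each gap is above Dixon's critical value for 4 samples. Across 40 sets of 1 gene in 1 group, 3 were, which is near the share of about 1 in 20 that chance gives. The 3 are also not independent. All come from the same array, and over the 8 livers r was 0.87 for Glul with Cyp1a2, 0.70 for Cyp2e1 with Cyp1a2 and 0.61 for Glul with Cyp2e1. For Glul the other 3 arrays lay close together, between 4.82 and 4.84. The same array had the highest neutrophil marker mean of the 8 livers, 3.45 above their average, and hepatocyte markers 0.54 below it (-0.54). The part of either in these levels was not tested.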

How the results depend on the processing

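Between inflammatory cells and liver, all 10 genes were called, 9 after normexp with the 75th percentile, with detected probes, or without the arrays rich in pancreas transcripts, 4 where a probe had to be well above background on every array (4 genes were then tested), and 6 under scaling to hepatocyte markers, an alternative chosen after seeing the data. The gene that lost its call in the first 3 settings was Axin2, which turned to 0.10 after normexp. With hepatocyte scaling Glul, Oat, Cyp1a2, Axin2, Hal and Sds turned to 3.52, 4.68, 0.81, 4.71, 0.39 and 0.27. For ADSC against PBS, 0 genes of the 10 were called in either sample type except with array weights (2 in liver, 2 in inflammatory cells).

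For the ADSC comparisons the directions that turned belong to values that had not passed the test. The cause was not tested. In liver Axin2 became 0.07 after normexp, and Gls2 became -0.09 with slide as a random block. With slide fixed, Glul, Cyp1a2, Rgn, Cyp2f2, Hal and Gls2 became -0.34, -0.52, -0.68, -1.49, -0.94 and -1.23. These are the differences between liver ADSC 7 and liver PBS 13, the only livers of unlike treatment on a shared slide. With scan day Rgn, Cyp2f2, Hal and Gls2 became -0.18, -0.42, -0.55 and -0.80, which compares only liver ADSC 7 and 9 with liver PBS 13. In inflammatory cells Glul became -0.04 after normexp and with slide fixed, and hepatocyte scaling gave Glul -0.55, Cyp1a2 -0.12 and Hal -0.10. Sds became 0.22 after normexp, 0.12 with detected probes, and 0.01 and 0.07 with slide random and fixed. Oat became 0.15 after normexp with quantile scaling, 0.11 with quantile scaling, 0.12 with detected probes, 0.07 and 0.25 with slide random and fixed, and 0.04 without the pancreas-rich arrays. For the difference of the ADSC effects Cyp1a2 became -0.05 after normexp, -0.39 after normexp with quantile scaling, -0.07 with quantile scaling, -0.03 and -0.29 with slide random and fixed, and -0.20 with scan day. Glul became 0.10, 0.16 and 0.06 with normexp and quantile, quantile and detected-probe scaling. Normexp with quantile scaling gave Rgn -0.14, Cyp2f2 -0.29 and Sds -0.03. Sds was -0.14 with quantile scaling and -0.03 with array weights, and slide fixed gave Rgn -0.20 and Gls2 -0.07.

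Leaving out 1 array at a time moved liver Cyp2e1 between -0.37 and 0.13, Hal between -0.26 and 0.39, Sds between -0.28 and 0.08 and Gls2 between -0.28 and 0.38. In inflammatory cells Oat moved between -0.34 and 0.20 and Sds between -0.13 and 0.03. In the difference of effects Glul moved between -0.25 and 0.04, Cyp1a2 between -0.25 and 0.39, Rgn between -0.11 and 0.76 and Sds between -0.10 and 0.26.

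The 243 genes called in inflammatory cells became 68, 78, 89 and 138 without ADSC 9, PBS 12, ADSC 10 and ADSC 8, and 507 without ADSC 7. They became 362 after normexp, 219 with quantile scaling, 143 with detected probes, 109 with no filter, 818 and 0 with slide random and fixed, 161 with scan day, 5247 with array weights, 519 with hepatocyte scaling, 917 in 1 fit of all arrays, and 0 without the pancreas-rich arrays. With 0 in liver, array weights called 3058 genes, 1 fit of all arrays 9 and the mean of the probes 1. The 7 genes called for the difference of effects became 0 to 47 with 1 array left out (47 without inflammatory cells PBS 14) and 2044 with array weights, never with one of the 10.

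Whether the numbers pair the samples is not settled. Of the 8 liver arrays 4 correlated best with the inflammatory cell array of their own number, out of 4 candidates each. With the replicate block, 10 of the 10 genes were called between inflammatory cells and liver, 18413 genes in all against 18681, and 0 of the 10 in the difference of effects, where 0 genes were called against 7. Signal over background limits Axin2 most, which 2 of 8 inflammatory cell arrays measured.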

Other observations

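Other genes near the zonated enzymes also divided between the sample types. Of 13 tested genes of histidine, serine and threonine catabolism 10 were lower and 2 higher in inflammatory cells (median -4.33). The higher ones, named after their values were seen, were Hdc, which makes histamine from histidine, at 5.58, and Tdh, threonine dehydrogenase, at 4.07. All 6 genes of ascorbate, calcium and gluconate handling were lower (median -2.47), with Gulo, the last enzyme of ascorbate synthesis, at -7.40 ± 0.26. Of 7 genes of the aryl hydrocarbon receptor axis, which induces Cyp1a2, 4 were lower and 2 higher. Nqo1 and Cyp1b1 differed by -3.16 and -3.15 and Tiparp by 3.38 ± 0.15. Too few inflammatory cell arrays were well above background for Cyp1b1 to be tested within that sample type, so its size is set largely against background.

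The mid-lobular genes were lower for 3 of 3 tested (median -5.51), Hamp, the iron hormone hepcidin, by -5.51 and Igfbp2 by -6.10. Of 16 hepatocyte transcription factors 13 were lower and 2 higher in inflammatory cells, with the bile acid receptor Nr1h4 at -4.94, while Hnf4a and Foxa3 were well above background on none of the 8 inflammatory cell arrays. With ADSC, 1 of 13 of these factors tested was called in inflammatory cells, Cebpb, at -1.27 ± 0.25 (adjusted p = 0.0367, limma), beside 1.2% of all genes. Cebpb is also expressed by myeloid cells, whose markers fell in the same comparison (12 of 14 neutrophil markers, median -3.95, and 4 of 10 monocyte and macrophage markers, median -1.17). Their part in the Cebpb value was not tested. Without the pancreas-rich arrays, or with slide as a fixed block, 0 genes were called.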
